A study of Mus musculus with 2 samples.

Results

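The cytochrome P450 genes of families 1, 3 and 4 (CYP1, CYP3 and CYP4) were taken by gene name on the array. Every transcript probe counted whose gene name began with Cyp, then 1, 3 or 4, then a letter. This gave 38 of 56605 probes and 30 of 37074 gene names: 3 probes for 3 genes of family 1, 8 probes for 8 genes of family 3 and 27 probes for 19 genes of family 4. RNA came from mouse primary hepatocytes, the main liver cell, isolated by collagenase perfusion and kept on collagen-coated plates until 24 h after seeding. The control culture was from *Drp1* flox/flox sibling littermates (labeled wild type), and the *Drp1*LiKO culture was from *Alb*-Cre Tg/+ *Drp1* flox/flox mice, both on a C57BL/6 background. The albumin promoter drives Cre mainly in hepatocytes. Which other cells in the culture kept *Drp1*, the gene for the mitochondrial fission protein, was not measured. How many mice gave each culture, and their age and sex, is not given in the sources used here.

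P450 enzymes are heme proteins of the endoplasmic reticulum that add oxygen to their substrates with electrons from NADPH, and hepatocytes hold most of those in the body. CYP1 enzymes oxidize planar aromatic compounds and are switched on by the aryl hydrocarbon receptor, and CYP3A enzymes oxidize a wide range of drugs and steroids under the receptors PXR and CAR. CYP4 enzymes hydroxylate the far end of fatty acids and eicosanoids, and the CYP4A genes are classic targets of PPAR alpha. Many P450 mRNAs are known to decline in hepatocytes kept in culture.

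Gene expression was read on 1 array per genotype, so no test was made and each value describes these 2 arrays. Signals are linear intensities with the spot background subtracted by the authors' scanner software. Log2 ratios are *Drp1*LiKO over control after the 75th percentile of each array, 313 for the control and 356 for the *Drp1*LiKO array, was brought to the same level, so a ratio is 0.18 lower on the log2 scale than the quotient of the printed signals. A probe was detected if its signal was well above background on at least 1 array, and a gene was represented by its brightest detected probe. A gene counted as past the threshold when its Z score over all detected probes was at least 2 or at most -2, which was a log2 ratio of 1.30 or -1.31. The error given as ± is the SD of a log2 ratio in the scanner software's error model, 0.20 for the median member probe; it covers the reading of spots and not the difference between cultures. *Dnm1l*, the gene for *Drp1*, went from a signal of 2602 in control to 1217 in *Drp1*LiKO cells on its brighter probe, a log2 ratio of -1.28 with a Z score of -1.95, just short of the threshold, and from 22.8 to 20.9 on its dimmer probe (-0.31). The authors' normalized table, used as an alternative, ranked the probes as the control array did (Spearman correlation 1.00 across probes, which are not independent replicates) but less closely as the *Drp1*LiKO array did (0.958). Which scan its *Drp1*LiKO column was made from is not given in the sources used here, and for a few member probes that column stands far from the array, as given beside their values.

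Probes are 60 bases long, and many of these genes are near copies, so the sequences that decide what a signal stands for are shown first. The accession lists of 9 of the 38 member probes named transcripts of several genes, 26 named 1 gene and 3 named none. The *Cyp3a11* probe joined 2 stretches of mm9 chr5:146672058-146673925, across an intron, and its list named *Cyp3a11*, *Cyp3a41a*, *Cyp3a41b* and *Cyp3a44*. The *Cyp3a59* probe, at mm9 chr5:146920638-146920697, named *Cyp3a59* alone. The strand of a probe on the chromosome and its place in an exon or UTR were not annotated here. Both are shown 5′ to 3′ in the sense of the transcript, in lower case throughout because no base was singled out.
Cyp3a11: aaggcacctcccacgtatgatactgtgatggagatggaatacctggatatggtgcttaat
Cyp3a59: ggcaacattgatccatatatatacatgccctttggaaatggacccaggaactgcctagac

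*Cyp3a25* and *Cyp3a57* were the only different members whose probes could be laid over each other without gaps at 80% identity or more over at least 30 bases. Over 52 aligned bases 49 were identical, and the differences, counted from the 5′ end of the *Cyp3a25* probe, were G17T, T47C and A49G. Bases 1 to 30 of the *Cyp3a25* probe (mm9 chr5:146789175-146789234) and bases 9 to 38 of the *Cyp3a57* probe (mm9 chr5:146151322-146151381) are set side by side, with the base that differs in capitals.
Cyp3a25: acccatcatcctaaagGttgtgtcaagaga
Cyp3a57: acccatcatcctaaagTttgtgtcaagaga
Cross-hybridization between these 2 transcripts was not tested.

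The lists of the other probes named *Cyp3a25* with *Cyp3a59*, *Cyp3a41a* with *Cyp3a41b*, *Cyp4a12a* with *Cyp4a12b*, *Cyp4a10* with *Cyp4a32* on each of 3 probes, *Cyp4a10* with *Cyp4a31* on 1 of the 2 *Cyp4a31* probes, and *Cyp4f16* with *Cyp4f37* on 1 of the 2 *Cyp4f16* probes. For these, a signal cannot be credited to 1 gene.

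Of the 30 genes, 24 were detected, 20 of them on both arrays, 3 in *Drp1*LiKO cells alone by their brightest probe and 1 in control cells alone. Their log2 ratio was above 0 for 21 genes and below 0 for 3, where 44.5% of all 20165 detected genes were above 0. The 4 genes detected on 1 array alone, *Cyp1a1*, *Cyp4a14*, *Cyp4f39* and *Cyp3a44*, passed the filter through the array where they were higher. Their signs thus follow largely from the filter. Of the 20 genes detected on both arrays, only *Cyp4f15* and *Cyp4f18* were below 0. Past the threshold, 11 genes were higher in *Drp1*LiKO cells, against 3.5% of all detected genes, and 1 was lower, against 2.81%. The 11 were *Cyp1a1*, *Cyp3a11*, *Cyp3a16*, *Cyp3a25*, *Cyp3a41a*, *Cyp3a57*, *Cyp3a59*, *Cyp4a12a*, *Cyp4a12b*, *Cyp4b1* and *Cyp4f39*, and the 1 was *Cyp3a44*. The median log2 ratio of the 24, bounds included, was 1.08, and that of all detected genes was -0.05. When detection on both arrays was required, 10 of 20 member genes were higher and 0 lower, against 3.49% and 2.34% of all genes. When only member probes whose accession lists named exactly 1 gene were kept, 19 member genes remained. Of these, 7 were higher and 1 was lower, against 3.48% and 2.81% of all genes.

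**Figure D1:**
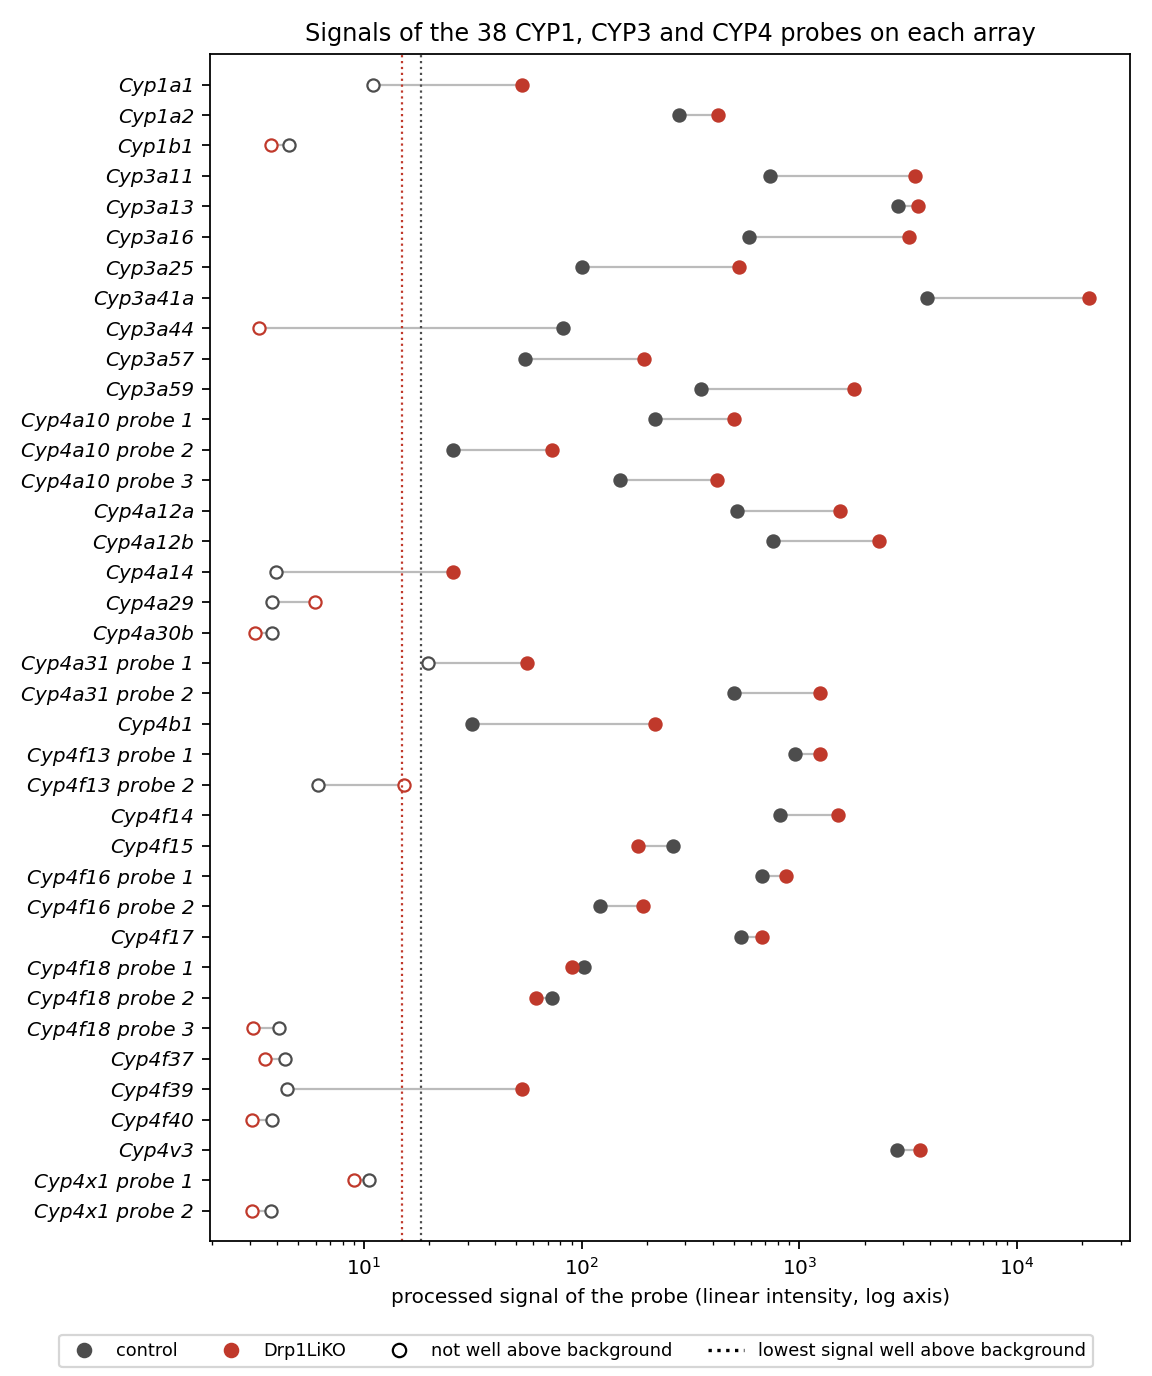
Processed signal of each of the 38 member probes, on a log axis, in control (gray) and *Drp1*LiKO (red) cells; open points were not well above background and the lowest signals above it, 18.2 for the control and 14.98 for the *Drp1*LiKO array, are dotted lines. Rows are read from left to right only, since signals of different probes cannot be ranked, and the filled points of *Cyp4b1* lie at 31.3 and 217.

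Of the 3 families, family 3, which on this array held Cyp3a genes alone, had the highest median. Of 8 Cyp3a genes, all detected, 6 were higher past the threshold, 1 was lower and *Cyp3a13* was near 0, with a median log2 ratio of 2.09. *Cyp3a11*, the main adult liver form and the usual mouse counterpart of human CYP3A4, went from a signal of 736 in control to 3408 in *Drp1*LiKO cells, which was 4.08-fold higher (log2 ratio 2.03 ± 0.20). *Cyp3a41a*, a form known to be higher in female than in male liver, went from 3863 in control to 21351 in *Drp1*LiKO cells, 4.87-fold (2.28 ± 0.20). *Cyp3a16*, known mostly from fetal and newborn liver, went from 590.5 to 3209.9, 4.79-fold (2.26 ± 0.20). The *Cyp3a11* probe also listed *Cyp3a41a*, so these 2 values are not fully separate measurements, and the *Cyp3a16* probe listed *Cyp3a16* alone.

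*Cyp3a25*, a liver and gut form, went from 99.97 in control to 527 in *Drp1*LiKO cells, 4.64-fold higher (2.22 ± 0.21). *Cyp3a59* went from 356 to 1785, 4.42-fold (2.15 ± 0.20). *Cyp3a57* went from 54.9 to 193, 3.09-fold (1.63 ± 0.23); with normexp correction its log2 ratio was 0.96, still past the threshold, and without a floor for dim signals its Z score was 1.77, short of it. The authors' normalized values put *Cyp3a11* at 2.25, *Cyp3a25* at 2.42 and *Cyp3a57* at 1.95, all past the threshold. The ratios of *Cyp3a11*, *Cyp3a16*, *Cyp3a25*, *Cyp3a41a* and *Cyp3a59* lay within 0.26 of each other, less than the SD of 0.29 for a difference of 2 such ratios, so they have no order. *Cyp3a57* was 0.59 below *Cyp3a25*, with which its probe shares most of its bases, against an SD of 0.31.

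*Cyp3a44* went the other way. This female-predominant form had a signal of 82.1 in control cells but 3.30 in *Drp1*LiKO cells, not well above background, and was at least 6.22-fold lower. Its probe listed *Cyp3a44* alone. With normexp background correction the log2 ratio was -1.14, and from the authors' normalized values, raised to the detection limit set for that table, -1.93; the gene was past the threshold in both. *Cyp3a13*, the form best known from the intestine, had signals of 2857 and 3525 (log2 ratio 0.12 ± 0.20), and *Cyp3a11* was 1.91 above it against an SD of 0.29.

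By position, the genes that differed were neighbors. The probes of the other 7 Cyp3a genes lay within 769 kb of chromosome 5, in the order *Cyp3a57*, *Cyp3a16*, *Cyp3a41a*, *Cyp3a44*, *Cyp3a11*, *Cyp3a25* and *Cyp3a59*, and that of *Cyp3a13* lay 7.82 Mb away. *Cyp3a44* stood between 2 genes that were higher in *Drp1*LiKO cells, 79.9 kb from *Cyp3a41a* and 86.3 kb from *Cyp3a11*.

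The starts of *Cyp3a44* and its neighbors are shown because genes on both sides of the threshold share most of this sequence. RefSeq promoter windows of GRCm38.p6, from 250 bases before to 50 bases after the start of transcription, were at hand for 23 of the 30 genes. Of 300 bases, the *Cyp3a44* window shared 284 with that of *Cyp3a16*, 281 with *Cyp3a41a* and 226 with *Cyp3a11*. CAAAGTCCA, a core of sites bound by the liver factor HNF4 alpha, was found on either strand in the windows of *Cyp3a11*, *Cyp3a16*, *Cyp3a41a* and *Cyp3a41b*, the last of which has no probe under its own name, and in 0.475% of all 32851 windows. It was not found in those of *Cyp3a25*, *Cyp3a57* and *Cyp3a59*, which were also higher in *Drp1*LiKO cells, of *Cyp3a13*, which was near 0, or of *Cyp3a44*, so that 3 of the 6 higher Cyp3a genes had it and 3 did not. The closest stretch in *Cyp3a44* differed by C7A, counted from the 5′ end of the motif. The 4 windows shown run from position -140 to position -61 from the start, on the minus strand, and the capitals mark the motif or, in *Cyp3a44*, its closest stretch.
Cyp3a11: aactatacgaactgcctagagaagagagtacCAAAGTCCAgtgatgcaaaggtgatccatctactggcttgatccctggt
Cyp3a16: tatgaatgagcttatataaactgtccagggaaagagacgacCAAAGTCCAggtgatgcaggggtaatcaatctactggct
Cyp3a41a: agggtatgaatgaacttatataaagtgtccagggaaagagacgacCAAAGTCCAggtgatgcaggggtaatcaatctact
Cyp3a44: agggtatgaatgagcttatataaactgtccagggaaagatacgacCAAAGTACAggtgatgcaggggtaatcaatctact
They lie at GRCm38.p6 chr5:145879915-145879994 for *Cyp3a11*, chr5:145469784-145469863 for *Cyp3a16*, chr5:145720197-145720276 for *Cyp3a41a* and chr5:145805935-145806014 for *Cyp3a44*. The capitals begin at position -109 from the start in *Cyp3a11*, -99 in *Cyp3a16* and -95 in *Cyp3a41a* and *Cyp3a44*. Within these 80 bases *Cyp3a41a* and *Cyp3a44* differed at 4, which were, counted from the first base shown and from *Cyp3a41a* to *Cyp3a44*, A14G, G25C, G40T and C52A.

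Other motifs were searched on both strands of the same windows, all chosen after the expression values were known. TGAACT, the repeat unit of PXR and CAR elements, was in the windows of *Cyp3a11*, *Cyp3a41a*, *Cyp4f13* and *Cyp4v3* among the genes on the array, and in 14.0% of all windows. GCGTG, the core bound by the aryl hydrocarbon receptor, was in those of *Cyp1a1*, *Cyp1b1*, *Cyp4f14*, *Cyp4f16*, *Cyp4f39* and *Cyp4v3*, and in 32.4% of all windows. The PXR and CAR elements with AGGTCA 3 bases before another AGGTCA, or TGAACT 6 bases before AGGTCA, and the PPAR element with AGGTCA 1 base before another AGGTCA were in no member window. They were in 2, 0 and 13 of the 32851 windows, and the second of them contains the TGAACT counted above. Such matches describe letters only.

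Among the Cyp4a genes, 5 of 7 were detected, 4 of them on both arrays. All 5 had a log2 ratio above 0, with a median of 1.14, and 2 were past the threshold. *Cyp4a12a*, a form known to be higher in male liver and to make 20-HETE from arachidonic acid, went from 519.5 in control to 1546 in *Drp1*LiKO cells, 2.62-fold higher (1.39 ± 0.20). Its near copy *Cyp4a12b* went from 757 to 2336, 2.72-fold (1.44 ± 0.20), and the 2 ratios differed by 0.05 against an SD of 0.29. The first probe lists both genes and the second *Cyp4a12b* alone, and without the floor both genes were short of the threshold.

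*Cyp4a10*, a fatty acid hydroxylase commonly used to read out PPAR alpha, had 3 probes, each of which also listed *Cyp4a32*. The brightest went from 218 in control to 499.9 in *Drp1*LiKO cells (1.02 ± 0.21, Z score 1.57), the next from 150.0 to 418 (1.30 ± 0.21, Z score 1.999) and the dimmest from 25.7 to 73.03 (1.32 ± 0.31, Z score 2.04). The gene was thus short of the threshold by its brightest probe, just short by the next and past it by the dimmest. *Cyp4a31* went from 501 to 1253 on a probe of its own (1.14 ± 0.20). A probe shared with *Cyp4a10* went from 19.7, not well above background, to 55.98, 2.50-fold higher and past the threshold. That control signal was above the floor of 18.2 and was kept, so the ratio is not a bound set by the floor. By the authors' normalized values of the brightest probes, *Cyp4a10* was at 1.27, short of the threshold, and *Cyp4a31* at 1.43, past it. In those values the dimmest *Cyp4a10* probe was at 29.2 and 47.9 (0.71). The shared *Cyp4a31* probe was at 22.4, under the detection limit of 23.8 for that table, and 46.9 (1.07 without a floor). Normexp background correction of the raw intensities put both past it, at 0.86 and 1.09, on a scale with a narrower spread of all ratios.

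*Cyp4a14*, a strongly inducible PPAR alpha target, went from 3.96, not well above background, in control to 25.7 in *Drp1*LiKO cells, at least 1.24-fold higher. With normexp correction its ratio was -0.04. *Cyp4a29* (3.79 and 5.99) and *Cyp4a30b* (3.803 and 3.17) were not well above background on either array.

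*Cyp4b1*, which activates some protoxins and is best known from the lung, was also higher. Its signal was 31.3 in control against 217 in *Drp1*LiKO cells, 6.10-fold higher (2.61 ± 0.28), and 0.575% of all detected genes had a higher ratio. With normexp correction the log2 ratio was 1.41, below those of *Cyp3a11*, *Cyp3a16*, *Cyp3a25*, *Cyp3a41a* and *Cyp3a59*, which were then between 1.66 and 2.29. Both probes of *Cyp4x1*, the other member on this part of chromosome 4 and a form described from brain, were not well above background on either array, at 10.5 and 8.96 on the first and 3.75 and 3.05 on the second.

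The Cyp4f genes, which hydroxylate leukotrienes and long fatty acids, differed little. Of 9, 7 were detected, with a median of 0.18, and *Cyp4f39* alone was past the threshold. *Cyp4f39*, the counterpart of the human skin lipid gene CYP4F22, went from 4.42, not well above background, in control to 53.4 in *Drp1*LiKO cells, at least 2.58-fold higher. With normexp correction its log2 ratio was 0.46, short of the threshold. The authors' normalized values for this gene were 4.37 for control against 3.55 for *Drp1*LiKO cells, both under the detection limit of 23.8 for that table, so they do not show the difference.

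*Cyp4f14*, a leukotriene B4 and vitamin K hydroxylase, went from 816 to 1511 (0.71 ± 0.20), and *Cyp4f15* from 264 to 183 (-0.72 ± 0.21). These 2 genes lay 202 kb apart and their ratios differed by 1.42 against an SD of 0.29. *Cyp4f13* (959.6 and 1249, 0.20 ± 0.20), *Cyp4f17* (538 and 672, 0.14 ± 0.20) and *Cyp4f16* (678 and 872 on the brighter probe, 0.18 ± 0.20) were within their error of 0. The dimmer *Cyp4f16* probe, which also lists *Cyp4f37*, was at 0.48 ± 0.21.

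*Cyp4f18*, the leukotriene B4 hydroxylase of neutrophils and other leukocytes, was not higher in *Drp1*LiKO cells. It went from 103 to 90.1 on the brighter probe (-0.38 ± 0.22) and from 72.98 to 61.8 on a probe shifted by 1 base, with 3 differences over 59 aligned bases (-0.42 ± 0.23). The third probe, across an intron, was not well above background on either array (4.06 and 3.09), but the authors' normalized values for it were 3.96 and 63.2. *Cyp4f37* (4.34 and 3.52), *Cyp4f40* (3.78 and 3.07) and a second *Cyp4f13* probe (6.17 and 15.3) were not well above background on either array. *Cyp4v3*, a fatty acid hydroxylase whose human counterpart CYP4V2 is mutated in a retinal dystrophy, had signals of 2824 and 3603 (0.17 ± 0.20).

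Of the family 1 genes, *Cyp1a1*, the textbook aryl hydrocarbon receptor target, went from 11.0, not well above background, in control to 53.04 in *Drp1*LiKO cells, at least 2.56-fold higher. With normexp correction its log2 ratio was 0.44, short of the threshold, and the authors' normalized values were 12.5 and 37.4, which with the control raised to the detection limit of 23.8 gave a bound of 0.65. *Cyp1a2*, the constitutive liver form that oxidizes caffeine, lies 23.5 kb away and went from 279.9 to 422 (0.41 ± 0.21; 0.80 by the authors' normalized values). *Cyp1b1*, known mainly from tissues outside the liver, was not well above background on either array (4.54 and 3.73).

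The median log2 ratio was 0.88 over the 2 detected genes of family 1, 2.09 over 8 of family 3 and 0.51 over 14 of family 4. Among other P450 genes, family 2 had 38 detected genes with a median of 0.30, 7 of them higher past the threshold and 0 lower, and the remaining families had 9 detected genes with a median of -0.09, 2 higher (*Cyp26a1* at 2.60 and *Cyp26b1* at 2.71, both of which clear retinoic acid) and 1 lower (*Cyp21a1*, a steroid hydroxylase, at -1.42). The 7 of family 2 were *Cyp2a4*, *Cyp2a5*, *Cyp2a22*, *Cyp2b9*, *Cyp2b10*, *Cyp2c70* and *Cyp2f2*, all named after their values were seen, with ratios between 1.52 and 1.81.

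**Figure D2:**
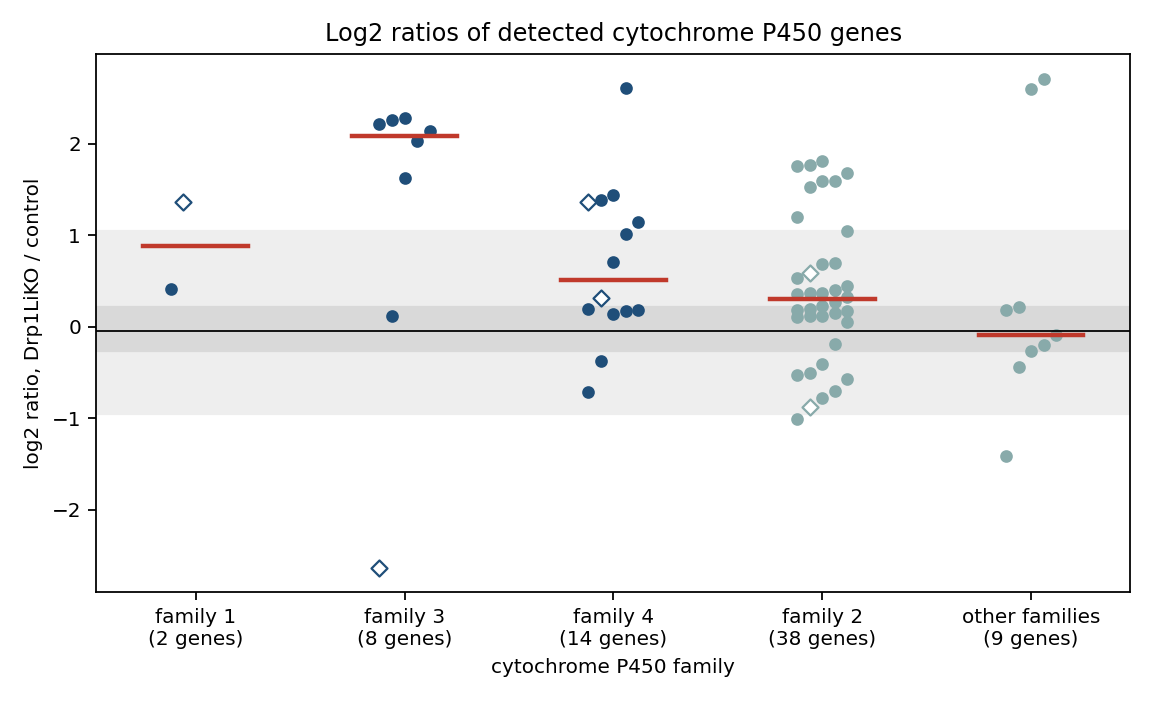
Log2 ratio (*Drp1*LiKO over control) of each detected P450 gene by family; filled points were measured on both arrays, diamonds are bounds, red bars are medians and the gray bands hold the central 50% and 90% of all detected genes around their median of -0.05. In family 3, 6 of 8 genes lie above the wider band, *Cyp3a13* lies within it and *Cyp3a44* below it.

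The receptors that drive these genes had ratios on both sides of 0. Of all 20165 detected genes, 44.5% were above 0, 3.5% were higher past the threshold and 2.81% were lower. These shares stand beside each list below. Of 17 listed sensors and partners, 14 were detected, 8 above 0 and 6 below, with a median of 0.09. Past the threshold, 2 were higher and 0 lower. The 2 were *Nr1i3*, the gene for CAR, at 19.9 in control against 104 in *Drp1*LiKO cells (2.20 ± 0.36), and *Ppargc1a*, the coactivator PGC-1 alpha, at 133 and 489 (1.69 ± 0.21). The control signal of *Nr1i3* was close to 18.2, the lowest one well above background on that array. *Nr1i2*, the gene for PXR, was not well above background on either array (6.95 and 13.3). *Ahr*, the aryl hydrocarbon receptor gene (745 and 833, -0.02 ± 0.20), *Ppara* (413 and 508, 0.12 ± 0.20) and *Hnf4a* (4631 and 5608, 0.09 ± 0.20) were within their error of 0. *Nr1h4*, the bile acid receptor FXR (941 and 524, -1.03 ± 0.20), and *Esr1*, estrogen receptor alpha (119 and 64.7, -1.06 ± 0.22), were the lowest.

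Targets of the same receptors outside the CYP1, CYP3 and CYP4 genes were set beside all detected genes. Of those, 3.5% were higher past the threshold and 2.81% lower, with a median log2 ratio of -0.05. Of 12 PXR and CAR targets on the array 9 were detected, with a median of 0.59, and 1 was past the threshold, *Cyp2b10*, the classic CAR target (102 and 349, 1.59 ± 0.21), while *Gadd45b* was lowest at -0.90. Of 20 PPAR alpha targets 19 were detected, with a median of 0.04. *Pdk4*, a brake on glucose oxidation (144 and 539, 1.72 ± 0.21), and the thioesterase gene *Acot1* (99.4 and 331, 1.55 ± 0.21) were higher, and the lipase inhibitor gene *Angptl4* was lower (30516 and 13878, -1.32 ± 0.20). Of 6 aryl hydrocarbon receptor targets 4 were detected, with a median of 0.44 and 0 past the threshold, between *Aldh3a1* at -0.53 and *Ugt1a6b* at 0.87.

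Genes that P450 enzymes depend on were near the all-gene median. The 6 electron donors had a median of 0.09, and *Por*, the NADPH reductase that serves all microsomal P450 enzymes, was at 13196 and 19274 (0.36 ± 0.20), while *Cyb5r3* was lowest at -0.40. The 12 heme genes had a median of 0.00, with 0 past the threshold. Their highest were *Hmox1*, the heme oxygenase (4452 and 9615, 0.93 ± 0.20), and *Alas1*, the first enzyme of heme synthesis (7716 and 15802, 0.85 ± 0.20), and their lowest was *Cpox* at -0.47.

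**Figure D3:**
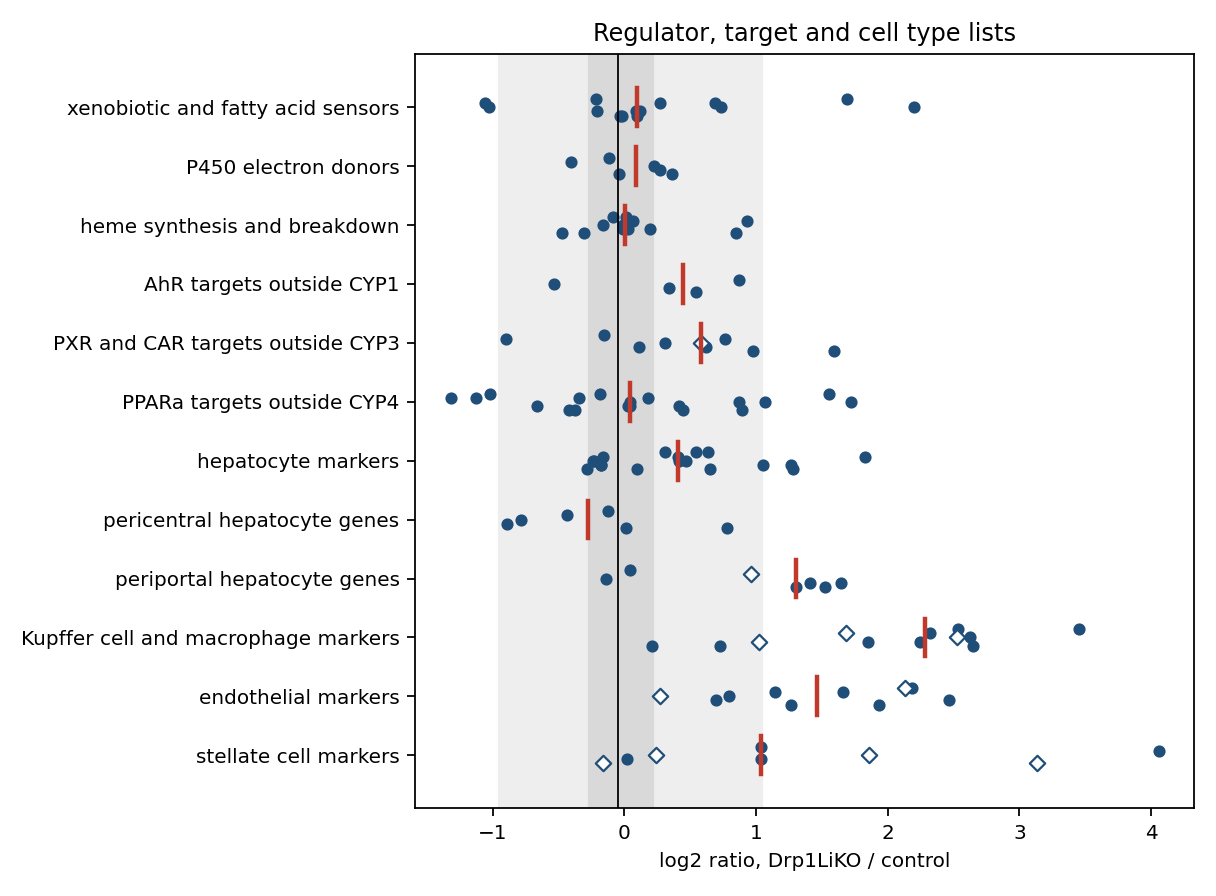
Log2 ratio (*Drp1*LiKO over control) of each detected gene in 12 lists; filled points were measured on both arrays, diamonds are bounds, red bars are medians and the gray bands hold the central 50% and 90% of all detected genes. The electron donor and heme medians lie at 0.09 and 0.00, and the Kupffer cell and macrophage median at 2.28.

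Sex and lobule position are known to set many of these genes. Members described as female-predominant went both ways, *Cyp3a41a* higher and *Cyp3a44* lower. Of 7 other female-biased genes only *Cyp2b9* was detected (41.5 and 150.4, 1.68 ± 0.24), and the 8 male-biased genes had a median of 0.38 with 0 past the threshold, from *Cyp7b1* at -0.20 to *Hsd3b5* at 0.54, while *Cyp4a12a* and *Cyp4a12b* were past it. The 6 detected pericentral genes had a median of -0.28 with 0 past the threshold, from *Oat* at -0.89 to *Rgn* at 0.78. The 7 detected periportal genes had a median of 1.30 with 4 past it, *Hal* (1.65), *Cyp2f2* (1.52), *Aldh1b1* (1.41) and *Hsd17b13* (1.30), and *Gls2* lowest at -0.14.

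Among markers of other liver cells, most of those for Kupffer cells and 5 of 10 for endothelial cells were also higher past the threshold in the *Drp1*LiKO culture. Of 14 Kupffer cell and macrophage markers 12 were detected, all above 0, and 9 were past the threshold, with a median of 2.28. *Clec4f*, *Vsig4* and *Fcgr1* were detected in *Drp1*LiKO cells alone, so their signs follow largely from the filter. The 9 were *Marco* (3.45), *Adgre1* (2.65), *C1qa* (2.63), *C1qc* (2.53), *Clec4f* (2.52, a bound), *C1qb* (2.32), *Lyz2* (2.25), *Cd68* (1.85) and *Vsig4* (1.68, a bound), and *Cd14* was lowest at 0.21. The summed signal of the 12, in multiples of the 75th percentile of the array, was 35.0 in control against 76.7 in *Drp1*LiKO cells. In control it was mostly that of *Cd14* (6407 and 8419), which was short of the threshold. *Cd163* and *Timd4* were not well above background on either array. Endothelial markers were detected in 10 of 10, all above 0, and 5 were past the threshold. *Lyve1* and *Tek* were detected in *Drp1*LiKO cells alone, with the same limit on their signs. The 5 were *Kdr* (2.47), *Clec4g* (2.18), *Lyve1* (2.13, a bound), *Cdh5* (1.93) and *Eng* (1.66), with *Tek* lowest at 0.27, a bound. The summed signal of all 10 was 14.8 in control against 27.1 in *Drp1*LiKO cells. It was mostly that of *Egfl7* (3773 and 6941, 0.70 ± 0.20), which was short of the threshold. Of 10 stellate cell markers 8 were detected and 3 were past the threshold, *Dcn*, the decorin gene (203 and 3848, 16.7-fold), *Col3a1*, a collagen gene (13.5, not well above background, and 182, at least 8.78-fold), and *Pdgfrb* (4.31, not well above background, and 75.1, at least 3.63-fold). The summed signal of the 8, 69.9 in control against 82.1 in *Drp1*LiKO cells, was mostly that of *Acta2* (21437 and 24640, 0.02 ± 0.20). *Lrat* and *Hand2* were not well above background on either array. The signs of *Col3a1* and *Pdgfrb*, detected in *Drp1*LiKO cells alone, also follow largely from the filter.

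Inflammatory cytokines are known to lower P450 mRNA. Of 15 acute phase and cytokine genes 2 were higher past the threshold, *Il6* (3.97, not well above background, and 69.7, at least 3.37-fold) and *Lcn2* (7165 and 26508, 1.70 ± 0.20), and *Hamp*, the hepcidin gene, was lower (24274 and 5534, -2.32 ± 0.20). The list median was -0.28. *Tnf* was at 122 on both arrays (-0.17 ± 0.21), and *Il1b* went from 8.07, not well above background, to 36.9, at least 1.78-fold higher.

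All 18 hepatocyte markers were detected, with a median of 0.41 and 1 past the threshold, *Ahsg* (1.83), and their summed signal was 4315 in control against 4085 in *Drp1*LiKO cells. Albumin (*Alb*) was at 0.10 ± 0.20. Cholangiocyte markers had 4 of 6 detected and 0 past the threshold (93.8 and 70.0 summed, mostly *Spp1*), and *Epcam* and *Cftr* were not well above background. Lymphocyte markers had 2 of 8 detected and 0 past the threshold (0.858 and 0.666 summed). Neutrophil markers had 3 of 7 detected and 1 past the threshold (53.0 and 59.9 summed, mostly *Csf3r*). The 1 was *Ly6g*, which went from 17.5, not well above background, to 76.9, at least 3.72-fold higher. The part that the mix of cells played in the P450 ratios was not tested. In such bulk cultures, fewer cells of a type and less RNA per cell cannot be told apart.

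**Figure D4:**
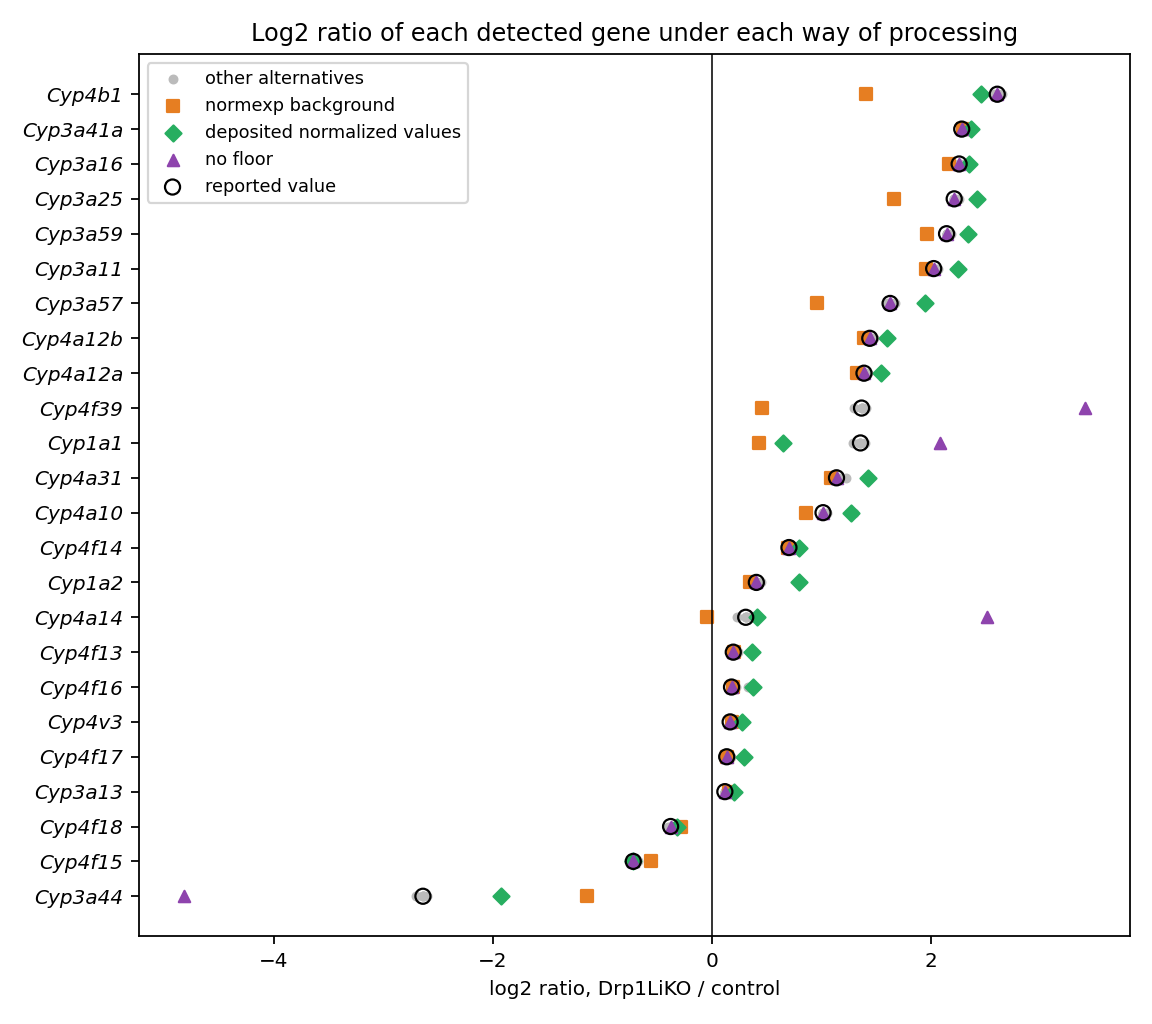
Log2 ratio (*Drp1*LiKO over control) of each of the 24 detected member genes, as reported (black rings) and under each other way of making the values (colored and gray marks). *Cyp3a11*, *Cyp3a16*, *Cyp3a25*, *Cyp3a41a* and *Cyp3a59* lie between 1.66 and 2.42 under all of them, whereas genes at background on 1 array spread widely, *Cyp4f39* from 0.46 to 3.41 and *Cyp3a44* from -4.82 to -1.14.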

How the data were processed

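The authors labeled cRNA with Cy3, hybridized it to 60-mer mouse arrays and, per the submitters' processing notes, read them with Agilent Feature Extraction 9.5.1.1 (the file headers give another version). They deposited the intensity of each spot, background-subtracted and detrended within the array, together with intensities they had normalized between arrays, by a method not given in the sources used here. Outlier spots were dropped (71 in control and 63 in *Drp1*LiKO, none of a member), the log2 values of the other spots of a probe were averaged, and each array was centered on its 75th percentile. A dim signal under the lowest one well above background was raised to that level, which makes its ratio a bound. Dim signals above that level were kept as they were. Of the probes, 48.2% in control and 52.1% in *Drp1*LiKO cells were well above background, 30275 on at least 1 array, and no spot was saturated. Member probes were printed once. The number of arrays limits the precision. Genes named were all members with all probes, *Dnm1l*, and from each pathway list those past the threshold and up to 4 others, its highest and lowest; other P450 genes and cell type markers were named after their values were seen. The members, gene lists, markers and motifs were chosen with earlier results of these data known. Coordinates of probes are mm9, from the file headers; promoters and gene names came from RefSeq tables of GRCm38.p6, which held all 30 names. Of 193 list entries 192 were on the array. The alternatives were quantile normalization, scaling to 7 spike-in probes, normexp background correction with an offset of 50, the authors' normalized intensities, no floor for dim signals, a filter on both arrays or none, all spots kept, the median over the probes of a gene, a robust Z score and a 2-fold threshold. Probes that list 1 gene alone were added after the data were seen. The steps were run on simulated data with planted changes larger than the threshold. Such a run does not measure how reliable the calls on these arrays are. Calculations were run in Python 3.11.15 (numpy 2.4.6, pandas 2.3.3), with figures by matplotlib 3.10.9, and normexp by limma 3.58.1 under R 4.3.3.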

Additional observations from a re-analysis of the deposited data

How the results depend on the processing

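Between 7 and 14 genes were higher past the threshold and 0 or 1 lower under all 12 alternatives. The alternatives held between 19 and 30 member genes, so these counts cannot be compared directly. Of all genes, between 3.21% (median over probes) and 8.54% (robust Z score) were higher, and between 1.61% (no filter) and 7.16% (robust Z score) lower. The count of 14 came from the robust Z score. No gene past the threshold changed sign where it was still detected. *Cyp4f39* was not detected in the authors' normalized values (4.37 and 3.55), so its sign was not compared there. *Cyp1a1*, *Cyp3a44* and *Cyp4f39* were also left out by the filter on both arrays. The count of 7, out of 19 member genes, came from probes listing 1 gene alone, an alternative chosen after seeing the data. This alternative also gave medians of 1.63 for family 3 and 0.25 for family 4. With probes well above background on both arrays 0 genes were lower, since *Cyp3a44* was left out, and the family 1 median was 0.41. Normexp correction gave medians of 0.39 for family 1 and 1.81 for family 3, and the authors' normalized values gave 2.29 for family 3. No filter gave 0.41 for family 1 and 0.18 for family 4, with the median of all genes at -0.47, and no floor gave 1.25 and 0.86. The genes past the threshold differed more than their counts: *Cyp1a1* and *Cyp4f39* were lost with normexp correction and with the authors' normalized values, and *Cyp3a57*, *Cyp4a12a* and *Cyp4a12b* without the floor, which widened the spread of all ratios. Scaling to spike-in probes moved the median of all genes to -0.01. Of 211 values of single genes, 191 moved by less than 0.20 and 20 by more. Many of the 211 had little room to move. The filters and the kept spots left member ratios as they were, and spike-in scaling shifted all ratios alike. Most of the 20 came from normexp correction and the authors' normalized values, so the 191 do not measure robustness. Signals near background limit *Cyp1a1*, *Cyp3a44*, *Cyp4a14* and *Cyp4f39* to bounds, and family 1 rests on 2 genes. No paired analysis was possible because each genotype had 1 array and the labels give no replicate numbers.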
